A study of Mus musculus with 9 samples.

Results

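The genes Dkk3, Clu, Car2, Car14, Prdx6, Crym, Gpr37 and Abca8a are 8 markers by which Müller glia are recognised in retinal transcriptomes, and they code for secreted proteins, enzymes, a binding protein, a receptor and a membrane transporter. They were picked by symbol as markers that are neither channels or carriers for glutamate, potassium and water nor retinoid genes. All 8 were present among the 16367 genes of the table of sorted cells and among the 17035 genes of the table of cultured cells. All 8 also passed the filter on low values, which kept 14403 genes of the sorted table.

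Müller glia are the radial glia of the retina and touch every retinal neuron. They clear glutamate, potassium, water and carbon dioxide, secrete factors that act on neurons, and protect the tissue from oxidants, and the 8 genes cover parts of the last 3 tasks. Several of them are not exclusive to Müller glia: Clu is also an astrocyte gene, and Car2 and Gpr37 are also oligodendrocyte genes.

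The libraries formed 3 groups with 3 libraries each, all of wild-type (WT) mice, and asked how a raised eye pressure and growth in a dish bear on Müller glia. Mice with ocular hypertension (OHT) had a chronic and mild rise of pressure after both anterior chambers had been given 1.2 µL silicone oil, and the sham group had the corneal incision alone. For both groups, 4 retinas were pooled per library, dissociated with papain, depleted of dead cells, and enriched on magnetic columns through an antibody against the surface protein GLAST, a glutamate transporter that retinal astrocytes also carry. The untreated primary cultures came from retinas of C57BL/6J pups aged 8 to 10 days, grown in serum on gelatin and passaged. The sources used here do not give the strain and age of the operated mice or the time after the oil. Nothing in the labels says that libraries of a group came from separate cohorts or culture preparations, so p-values measure only the spread between these libraries.

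Libraries held 37.8 to 53.6 M reads (1e6) in the sorted groups and 66.3 to 76.7 M in the cultures. The sorted fraction was not pure. The 12 microglia and macrophage markers took 3.41% to 5.29% of the reads in sham and 4.65% to 6.27% in OHT libraries, against 0.225% to 0.572% and 0.128% to 0.281% for the 10 core Müller glia markers, which include Glul, Rlbp1 and Aqp4. The 12 rod markers took 0.283%, 2.72% and 2.19% of the sham libraries and 0.0957%, 0.118% and 0.357% of the OHT libraries. The 5 astrocyte markers took 0.00184%, 0.0736% and 0.132% of sham and 0.00352% to 0.0103% of OHT libraries, and the 4 oligodendrocyte markers in the table took at most 0.0175% of any sorted library. Sham replicate 2 stood apart for the member genes: their summed reads were 0.878% of that library, against 0.303% and 0.535% in sham replicates 1 and 3 and 0.204%, 0.211% and 0.397% in the OHT libraries. The member differences and correlations are given with and without it. Over all kept genes, OHT replicate 1 was the most frequent extreme in normalised reads. It was highest for 32.7% and lowest for 30.6% of them, against 18.8% and 18.0% for sham replicate 2.

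Per kilobase of annotated exon, Clu had the highest level of the 8 genes in sorted cells. Clu codes for clusterin, a secreted chaperone and lipid carrier, and averaged 1017 ± 665 reads per 1e6 library reads and kilobase (ppm per kb; SD, n = 6 sorted libraries). Car2, the cytosolic carbonic anhydrase 2, which interconverts carbon dioxide and bicarbonate, averaged 249.8 ± 157 ppm per kb. Dkk3, a secreted member of the Dickkopf family of WNT modulators, averaged 234 ± 169 ppm per kb. Clu exceeded Car2 in 6 of 6 libraries, whereas Car2 exceeded Dkk3 in 4 of 6, so the order of the latter pair was not fixed. Prdx6, a peroxiredoxin that reduces phospholipid hydroperoxides, averaged 217 ± 107 ppm per kb and was exceeded by Dkk3 in 3 of 6 libraries. Car14, a membrane-bound carbonic anhydrase with its active site outside the cell, averaged 123.1 ± 66.1 ppm per kb. Crym, the µ-crystallin that binds thyroid hormone in the cytosol, averaged 75.0 ± 36.4 ppm per kb. These sat below Prdx6 and in this order in 6 of 6 libraries, and Crym stood above the genes that follow in each library as well. Abca8a, a lipid transporter of the ATP-binding cassette family, averaged 25.1 ± 17.4 ppm per kb. Gpr37, an orphan receptor for which prosaposin fragments have been proposed as ligands, averaged 22.7 ± 11.2 ppm per kb, and Abca8a exceeded it in 3 of 6 libraries. The ranges of every neighbouring pair overlapped when libraries were not matched.

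Of the 8 genes, 7 were lower in every primary culture than in any sorted library, with Prdx6 as the exception. The cultures and the sorted cells were normalised in separate tables, so levels across them are in ppm of the library total, without a test. Of the 15438 genes in both tables, 16.5% were below all sorted libraries in all 3 cultures, and 32.5% were above them in all 3, where the members counted 7 and 0. With totals scaled instead by the median ratio of genes, 3216 genes were below and 3856 above, against 2554 and 5016. The median log2 ratio of culture to sorted cells was -3.47 over the 8 genes and 0.45 over 12300 genes above 0 in all 9 libraries.

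The deepest gaps were those of the transporter Abca8a and the extracellular carbonic anhydrase Car14. Abca8a lay at 148, 322 and 107 ppm in sham, 55.4, 54.3 and 178 ppm in OHT, and 0.196, 0.198 and 0.117 ppm in the cultures. The cultures held 9 to 15 reads of Abca8a each, and the ratio of geometric means was 714-fold. Car14 lay at 151, 426 and 175 ppm in sham, 186, 101 and 224 ppm in OHT, and 0.588, 1.08 and 0.652 ppm in the cultures, with 39 to 82 reads and a ratio of 255-fold. Even the lowest sorted library exceeded the highest culture by 274-fold for Abca8a and 93.5-fold for Car14. The cultures were few but not at 0 for either gene.

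The upstream sequences of these 2 genes are shown because they had the largest difference between sorted cells and cultures. RefSeq promoter windows on build GRCm38.p6 were at hand for 3 of the 8 members, Car14, Gpr37 and Abca8a, and the window of Gpr37 lay wholly in annotated exon. Both sequences are on the minus strand of their chromosome, written 5′ to 3′ toward the start site, and trimmed to bases outside annotated exons. The Car14 stretch is chr3:95904692-95904935, from 250 to 7 bases before the start. The Abca8a stretch is chr11:110095979-110096187, from 250 to 42 bases before the start, and its capitals mark a TAATTA, the core bound by LHX2 and other homeodomain factors.
Car14: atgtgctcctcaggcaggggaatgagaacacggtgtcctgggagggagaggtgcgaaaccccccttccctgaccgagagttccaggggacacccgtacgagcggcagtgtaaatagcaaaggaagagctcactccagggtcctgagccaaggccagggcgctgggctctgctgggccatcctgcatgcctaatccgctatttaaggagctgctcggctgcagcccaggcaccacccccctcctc
Abca8a: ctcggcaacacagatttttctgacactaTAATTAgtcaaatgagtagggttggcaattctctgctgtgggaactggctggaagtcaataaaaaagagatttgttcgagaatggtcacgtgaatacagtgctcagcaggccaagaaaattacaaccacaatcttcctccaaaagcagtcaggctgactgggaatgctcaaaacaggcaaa
On both strands of the 250 bases before the start, Abca8a held 1 TAATTA, beginning 222 bases before the start, as did 4.84% of 32851 promoters. AACAAT, the core of SOX sites, was in 9.42% of these promoters, TGACNNNGC, the core of the antioxidant response element, in 10.2%, and GAANNTTC, the core of the heat shock element, in 6.69%. None of these 3 was in the windows of Car14, Gpr37 or Abca8a, and TAATTA was in neither Car14 nor Gpr37. A match describes letters only.

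Car2 and Gpr37 had intermediate gaps. Car2 lay between 201 and 994 ppm in the 6 sorted libraries and at 23.9, 18.5 and 21.1 ppm in the cultures, a ratio of 18.6-fold. Gpr37 lay between 76.8 and 259 ppm in sorted cells and at 7.33, 8.72 and 10.5 ppm in the cultures, a ratio of 14.4-fold. Neither gene overlapped, and the culture replicates lay close together.

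The secreted proteins and Crym had smaller gaps. Clu lay between 722 and 3784 ppm in sorted cells and at 124, 183 and 262 ppm in the cultures, a ratio of 8.55-fold. Dkk3 lay between 343 and 1872 ppm in sorted cells and at 162, 214 and 269 ppm in the cultures, a ratio of 3.13-fold. Dkk3 came nearest to an overlap among the 7, its lowest sorted library exceeding the highest culture by 1.28-fold. Crym, the thyroid hormone binder, lay between 49.3 and 174 ppm in sorted cells and at 18.8, 17.7 and 21.1 ppm in the cultures, a ratio of 4.90-fold.

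The antioxidant enzyme Prdx6 was at 712, 650 and 747 ppm in the cultures. Its sham libraries were at 383, 947 and 753 ppm and its OHT libraries at 318, 270 and 586 ppm. The cultures lay inside the sham range and above all OHT libraries, and the log2 ratio of culture to sorted cells was 0.52, close to the median of all genes. Prdx6 had the highest level per kilobase of the 8 genes in the cultures, at 281 ± 19.7 ppm per kb (SD, n = 3), followed by Clu at 105 ± 38.3, Dkk3 at 64.0 ± 15.9 and Crym at 13.9 ± 1.24. Car2, at 11.8 ± 1.51 ppm per kb, Gpr37 at 1.46 ± 0.259, Car14 at 0.453 ± 0.158 and Abca8a at 0.0297 ± 0.00805 completed the order. In the cultures only the ranges of Clu and Dkk3 and of Crym and Car2 overlapped among neighbours.

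**Figure D1:**
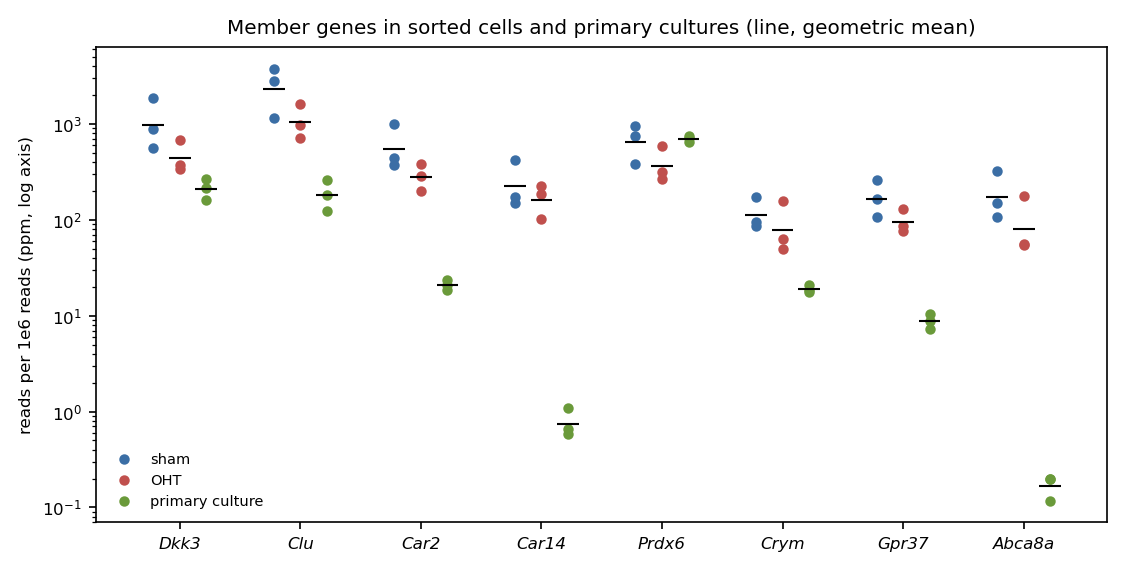
Level of the 8 genes in ppm of the library total (log axis) for sham, OHT and primary culture libraries, 1 point per library and a line at each geometric mean. All genes but Prdx6 have all 3 culture points below all sorted points, and the Prdx6 cultures sit at 650 to 747 ppm within the sorted range of 270 to 947 ppm.

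The core Müller glia markers differed between the tables in the same way. Of the 10, 9 were below all sorted libraries in all 3 cultures: Rlbp1 averaged 873 ppm in sorted cells and 2.24 ppm in cultures, Aqp4 105 and 2.57 ppm, and Kcnj10 34.3 and 0.318 ppm. Vim, the intermediate filament vimentin, was the tenth and averaged 105 ppm in sorted cells and 2757 ppm in cultures. The 8 mural cell and fibroblast markers took 1.61% to 1.91% of the cultures and at most 0.0261% of the sorted libraries. Col1a1, a collagen chain, averaged 5717 ppm and Acta2, smooth muscle actin, 10370 ppm in the cultures. Microglia markers took 0.0100% to 0.0154% of the cultures. Low marker levels in a bulk library cannot tell fewer cells of a type from less RNA per cell. The pups' age, passage in serum and the missing GLAST enrichment cannot be told apart from culture itself.

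Between OHT and sham, no member gene passed the test. All 8 had a log2 difference below 0, from -0.89 for Clu and Dkk3 to -0.22 for Car14, with a median of -0.64. Of all kept genes 54.8% lay below 0, with a median of -0.12. The limma test called 0 of 14403 genes at an adjusted p of 0.05, that is 0%, and the smallest adjusted p of any gene was 0.332. At an unadjusted p under 0.05, limma called 11.7% of genes and 0 of the 8 members. On the recovered reads, edgeR called 0 genes after adjustment and DESeq2 called 250, with no member among them. Dkk3 and Clu were the 2 members lower in OHT at an unadjusted p under 0.05 in either tool, where edgeR gave 5.67% of all genes in that direction and DESeq2 7.05%. No member had groups that did not overlap, whereas 9.18% of genes had all OHT libraries below all sham libraries and 9.26% had all above. The near-equal split depended on the scaling: on the ppm scale 1647 genes were lower and 783 higher in all OHT libraries, against 1322 and 1334 as deposited.

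Dkk3 and Clu, which code for secreted proteins, had the largest differences, closely followed by Abca8a at -0.84. The order was not fixed. Abca8a was the lowest without sham replicate 3 (-1.14) and without OHT replicate 3 (-1.23). Dkk3 was at 21965, 73658 and 37747 normalised reads in the sham libraries and at 22548, 16512 and 25703 in the OHT libraries. Sham replicates 2 and 3 were above all OHT libraries, and sham replicate 1 lay within the OHT range. The log2 difference was -0.89 (SE 0.44, 95% interval -1.85 to 0.07, limma adjusted p = 0.454). Clu was at 44874, 148863 and 119038 in sham and at 47537, 42568 and 61425 in OHT, the same pattern. Its log2 difference was -0.89 (SE 0.46, 95% interval -1.91 to 0.12, limma adjusted p = 0.468). For both genes the OHT libraries were closer together than the sham libraries in normalised reads. The SD on the log2 scale was 0.33 against 0.87 for Dkk3 and 0.27 against 0.92 for Clu. How close they lay depended on the scaling. In ppm the OHT libraries were further apart, at 343, 374 and 680 for Dkk3 and 722, 965 and 1626 for Clu.

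The carbonic anhydrases had different patterns over the libraries. Car2 was at 17442, 39098 and 15708 in sham and at 18757, 8866 and 14520 in OHT. Sham replicate 2 alone was above every OHT library, and the log2 difference was -0.72 (SE 0.42, 95% interval -1.65 to 0.21, limma adjusted p = 0.513). Car14 was at 5896, 16743 and 7444 in sham and at 12208, 4472 and 8472 in OHT, so that 2 OHT libraries exceeded 2 sham libraries. Its log2 difference was -0.22 (SE 0.47, 95% interval -1.25 to 0.81, limma adjusted p = 0.851), and it was 0.22 without sham replicate 2 and 0.17 without OHT replicate 2. The direction of Car14 therefore rested on either of these libraries. The difference between the 2 genes was not tested.

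Prdx6 was at 14980, 37272 and 32062 in sham and at 20928, 11897 and 22134 in OHT. Its sham replicates 2 and 3 were above and sham replicate 1 within the OHT range, as for Dkk3 and Clu, and the log2 difference was -0.57 (SE 0.42, 95% interval -1.48 to 0.35, limma adjusted p = 0.579). Crym was at 3394, 6829 and 4005 in sham and at 3242, 2761 and 5897 in OHT. OHT replicate 3 was second to sham replicate 2 for this gene, and its log2 difference of -0.27 (SE 0.41, 95% interval -1.16 to 0.62, limma adjusted p = 0.783) became 0.025 without sham replicate 2.

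The receptor Gpr37 was at 4189, 10199 and 7050 in sham and at 5054, 3771 and 4927 in OHT. Its OHT libraries lay close together in normalised reads and enclosed sham replicate 1. In ppm they were further apart, at 76.8, 85.5 and 130. The log2 difference of Gpr37 was -0.56 (SE 0.38, 95% interval -1.39 to 0.27, limma adjusted p = 0.552). The transporter Abca8a was at 5800, 12648 and 4572 in sham and at 3645, 2394 and 6724 in OHT. OHT replicate 3 exceeded sham replicates 1 and 3, and the log2 difference was -0.84 (SE 0.47, 95% interval -1.87 to 0.20, limma adjusted p = 0.498). Exact two-sided permutation tests over the libraries gave p = 0.3 for 6 of the genes, 0.5 for Crym and 0.8 for Car14, where 3 against 3 can give no p below 0.1. Every interval included 0, and their lower ends reached from -1.16 to -1.91, so the spread of these libraries leaves room for differences of such size.

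**Figure D2:**
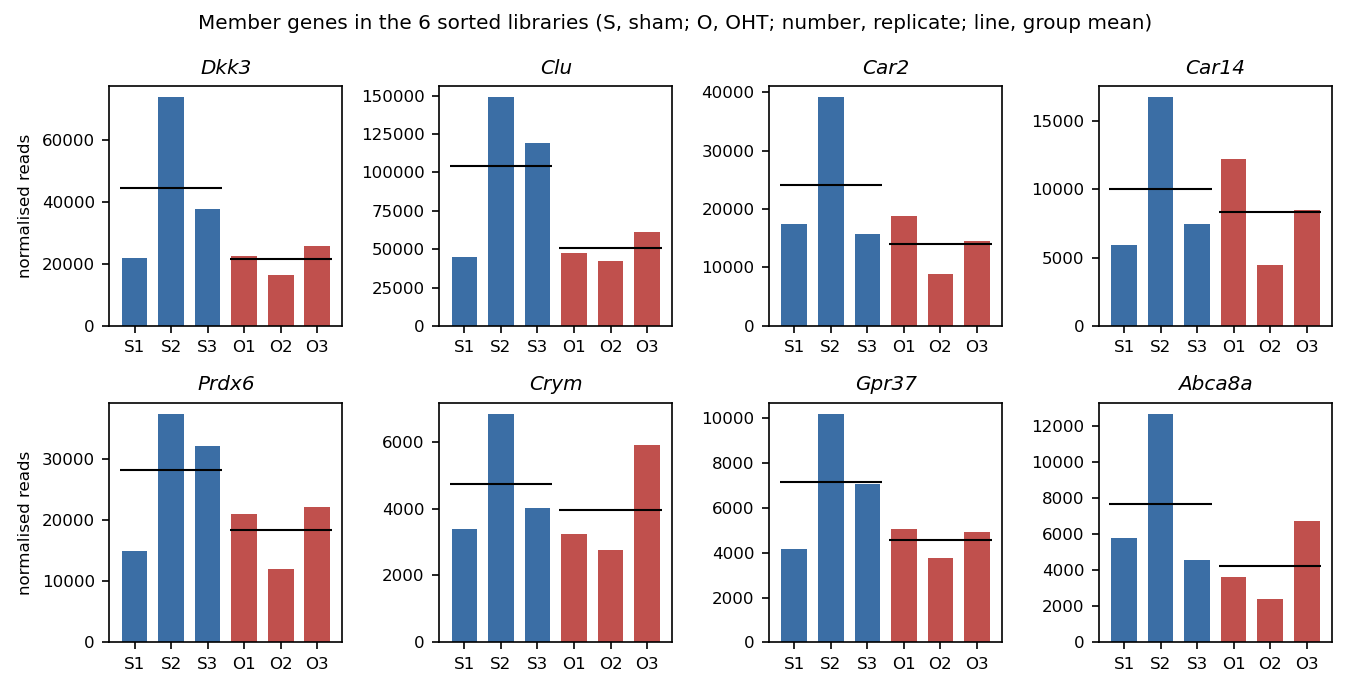
Normalised reads (linear axes from 0) of the 8 genes in the 6 sorted libraries, blue for sham and red for OHT, with a line at each group mean. Sham replicate 2 is the highest and OHT replicate 2 the lowest library in each of the 8 panels, and the groups overlap in all of them.

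The 8 genes shared their extremes. Each was highest in sham replicate 2 and lowest in OHT replicate 2, a pattern that 2.92% of all kept genes had. The ratio of these 2 libraries ran from 2.47-fold for Crym to 5.28-fold for Abca8a. Sham replicate 2 stayed highest for all 8 under 4 scalings (deposited, TMM, quantile and ppm). The lowest library did not: under quantile and ppm scaling Dkk3, Gpr37, Clu and Crym were lowest in OHT replicate 1, and Car14, Car2, Abca8a and Prdx6 stayed lowest in OHT replicate 2. Without sham replicate 2, 6 of the 8 log2 differences were below 0 and 2 above, with a median of -0.31. Of the 10 core Müller glia markers, 9 were highest in sham replicate 2 and 6 had both extremes. All 6 endothelial markers were also highest in sham replicate 2, with a share of 0.0216% to 0.0458% in sham and 0.0108% to 0.0203% in OHT. Kdr and Flt1 made up most of this share, averaging 125 and 66.3 ppm in sorted cells, and the others averaged at most 19.6 ppm. The part of these markers in the result was not tested.

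The member genes varied together across the sorted libraries. The Pearson r of log2 values had a mean of 0.80 over the 28 pairs, from 0.60 for Car14 with Clu to 0.99 for Dkk3 with Gpr37. It was above 0.7 in 22 pairs, against 13.9% of all gene pairs among 11532 genes with a mean of at least 100. These correlations describe 6 points that share their libraries, scaling and cell makeup. Taken as deviations from the group means, with both groups pooled and sham replicate 2 included, the mean r was 0.78. Neither group was examined on its own. Without sham replicate 2 the mean r was 0.57 and 8 of the 28 pairs were above 0.7, against 16.5% of all gene pairs in the same 5 libraries.

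Without that library, the pairs among Dkk3, Gpr37, Clu and Prdx6 had r between 0.88 and 0.98. The other pairs above 0.7 were Car14 with Car2 (0.75) and Abca8a with Crym (0.81), while Car14 with Abca8a had 0.33, Car2 with Crym 0.30 and Car14 with Clu 0.20. The values of these 4 genes followed those of the rod markers. Over all 6 libraries the r with the mean of the 12 rod markers was 0.98 for Clu, 0.91 for Dkk3 and 0.90 for Gpr37 and Prdx6, and between 0.50 and 0.69 for Car14, Car2, Abca8a and Crym. Without sham replicate 2, which also had the highest rod share, it was 0.97 for Clu, 0.95 for Dkk3, 0.88 for Gpr37 and 0.83 for Prdx6, and between 0.11 and 0.46 for the other members. The share of all genes with such an r was not counted. No r with the astrocyte or endothelial markers was taken, so these values do not single out rods. The r with the mean of Glul, Rlbp1, Slc1a3, Aqp4 and Kcnj10 was highest for Abca8a, at 0.97 with and without that library. It was 0.94 and, without that library, 0.79 for Car2, 0.91 and 0.62 for Dkk3, and 0.74 and 0.35 for Clu, which was the lowest of the 8 in both cases. All 12 rod markers were above 0 in every sorted library, and all 12 had a log2 difference below 0 between OHT and sham, with a median of -2.41. With the rod mean as a covariate, 6 of the 8 member differences were above 0 and 2 below, with a median of 0.25. No member came near the threshold in that limma fit, where the smallest adjusted p among them was 0.9995. At an unadjusted p under 0.05 it called 3.19% of all genes, against 11.7% without the covariate. Since the rod markers themselves differed between the groups, a fit on 6 libraries cannot tell rod content from OHT. Whether rod RNA made up the member differences was not tested. The r with the mean of the 12 microglia markers was below 0 for all 8 over 6 libraries, from -0.13 for Car14 to -0.78 for Clu, but above 0 for Car14 (0.31) and Car2 (0.14) without sham replicate 2. Astrocyte markers, like Clu, were highest in sham replicates 2 and 3, with 4 of 5 above 0 in every sorted library and Pax2 at 0 in 3 of them. The part of astrocyte RNA in the values was not tested.

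**Figure D3:**
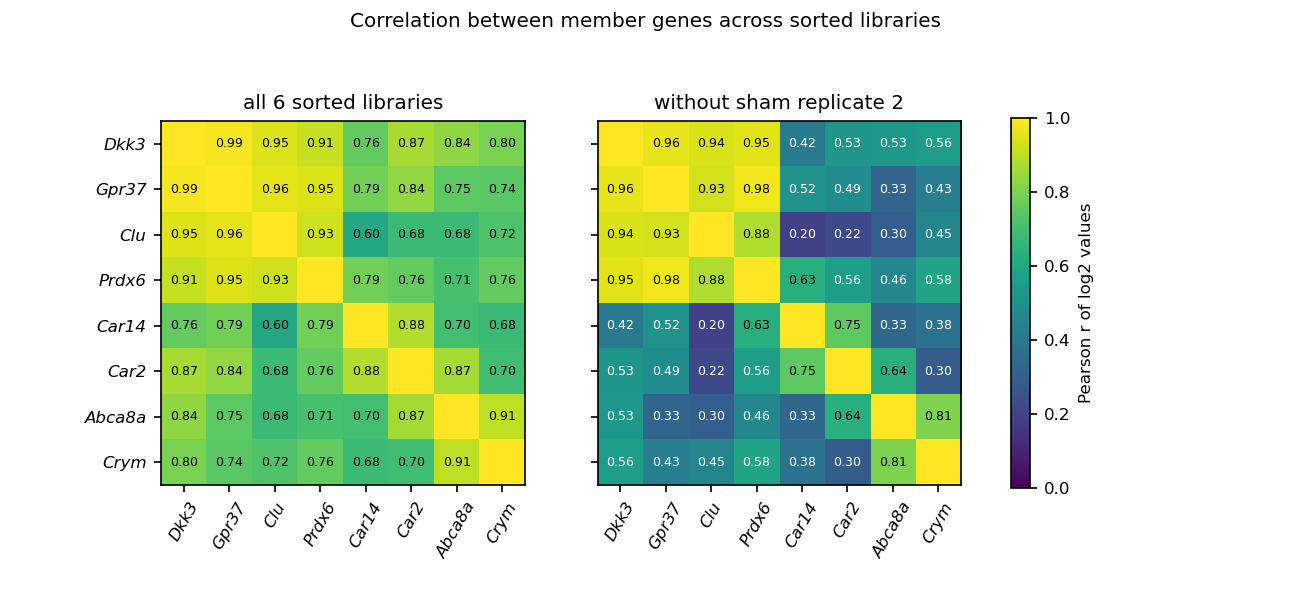
Pearson r of log2 values for each pair of the 8 genes over all 6 sorted libraries (left) and over the 5 libraries without sham replicate 2 (right), on a colour scale from 0 to 1. Pairs among Dkk3, Gpr37, Clu and Prdx6 stay at 0.88 or higher in both panels, while Car14 with Clu goes from 0.60 to 0.20.

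Each gene was also expressed relative to the mean log2 value of Glul, Rlbp1, Slc1a3, Aqp4 and Kcnj10 in the same library. On this scale Car2 was at 0.86, 0.85 and 0.82 in the sham libraries, where its SD was 0.017 scaled and 0.72 unscaled. Its OHT libraries were at 1.18, 0.63 and 0.49 and enclosed the sham values. Abca8a was at -0.73, -0.78 and -0.96 in sham and -1.18, -1.26 and -0.62 in OHT, and its range over the 6 libraries was 0.63 against 2.40 unscaled. Car2 was thus at a nearly constant proportion of the other glia genes in the 3 sham libraries, and Abca8a varied little.

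Clu kept most of its spread. It was at 2.22, 2.78 and 3.74 in sham and 2.52, 2.89 and 2.57 in OHT, and its SD in sham was 0.77 scaled and 0.92 unscaled. Dkk3 was at 1.19, 1.76 and 2.09 in sham and 1.45, 1.53 and 1.31 in OHT. Prdx6 was at 0.64, 0.78 and 1.85 in sham and 1.34, 1.05 and 1.10 in OHT. For these 3 genes sham replicate 3 was the highest library, and it was also the highest for Gpr37, at -0.33 against -1.20 to -0.60 elsewhere. Car14 was highest in OHT replicate 1, at 0.56 against -0.71 to -0.25 in the other libraries, and Crym in OHT replicate 3, at -0.81 against -1.67 to -1.05.

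After this scaling 4 of the log2 differences were below 0 (Dkk3 -0.25, Clu -0.25, Abca8a -0.20, Car2 -0.075) and 4 above (Car14 0.42, Crym 0.37, Gpr37 0.081, Prdx6 0.075). The mean of the 5 reference genes was itself lower in OHT, at 12.95 against 13.59 in sham, and all 5 had a log2 difference below 0. The scaling raises the difference of every gene by this gap, so it cannot show whether glia genes differed as a whole. The same scaling moved the median of all genes from -0.12 to 0.52. None of the 8 passed, with limma adjusted p from 0.848 to 0.983 and SE from 0.71 to 0.81. These SE draw on the variance of all genes on this scale as well as on that of each member. The members' own SD within a group ran from 0.017 (Car2, sham) to 0.77 (Clu, sham). The p-values therefore do not measure the members' own spread alone.

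**Figure D4:**
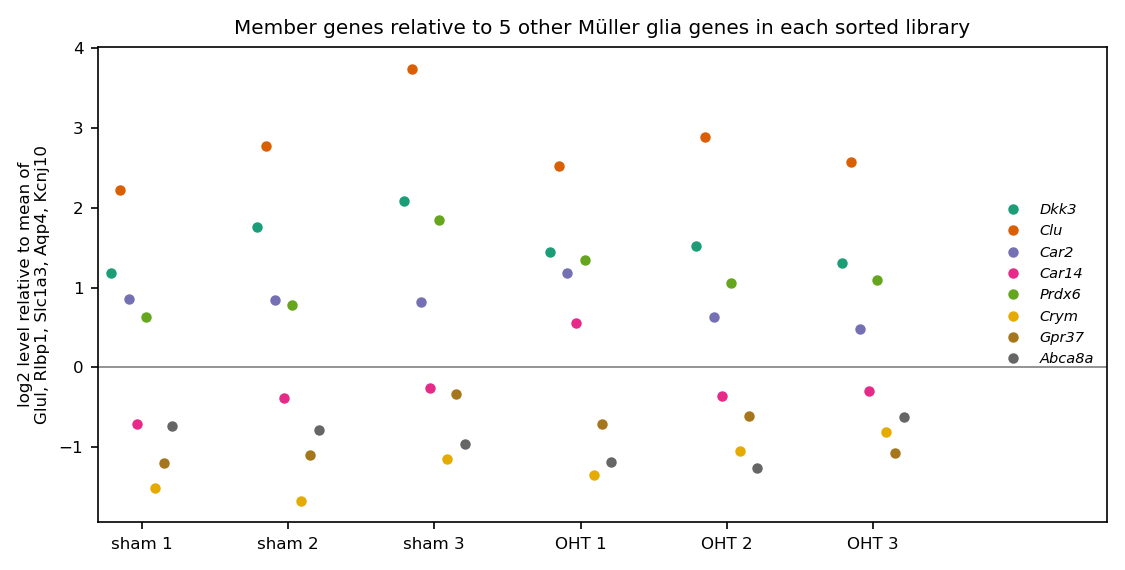
Log2 level of the 8 genes relative to the mean of 5 other Müller glia genes, 1 point per gene in each of the 6 sorted libraries. Car2 stays within 0.82 to 0.86 in the sham libraries, while Clu runs from 2.22 to 3.74.

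**Figure D5:**
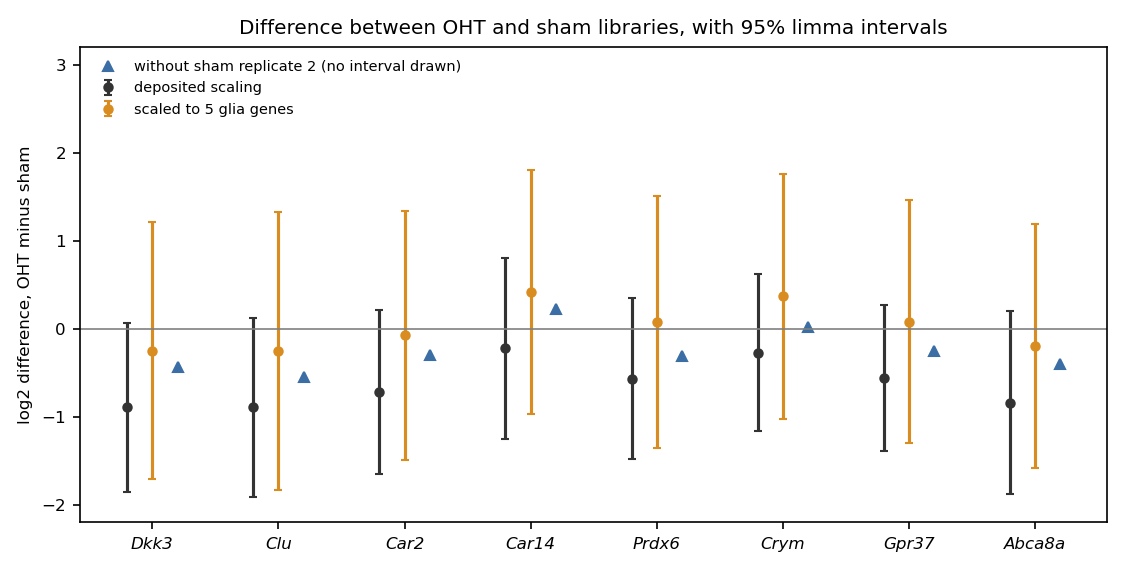
Log2 difference of OHT minus sham for the 8 genes, with 95% limma intervals, under the deposited scaling (black) and relative to 5 glia genes (orange), and without sham replicate 2 under the deposited scaling (blue, no interval). Black points lie from -0.89 to -0.22, orange points from -0.25 to 0.42, and all drawn intervals include 0. The limma intervals draw on the variance of all genes as well as on that of each gene shown.

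For each gene, the 3 genes with the most similar course over the 6 sorted libraries were found among 11531 others. Dkk3 and Gpr37 shared Scd2, a fatty acid desaturase gene, as nearest (r = 0.99 for both), followed by Tspan7 and Tollip for Dkk3 and by Slc14a1 and Gsta4 for Gpr37. Clu was nearest to Maged1, Aldoc, the brain form of aldolase, and Lrrtm3, of which Lrrtm3 was at 0 in 3 libraries. Prdx6 was nearest to Scg5, Prnp and Cntnap2. Car14 was nearest to Rrh, Gna11 and Ncald, and Car2 to Wipi1, Bcat1 and Shisa9. Abca8a was nearest to Camkmt, Sptbn1 and Gpm6a, and Crym to Drosha, Nectin3 and Dync1li2. All these r lay between 0.980 and 0.997 over 6 libraries, which share scaling and cell makeup. Without sham replicate 2 the r of these 24 pairs lay between 0.938 and 0.998, and 6 of the 24 were still among the 3 nearest. The 24 genes were picked for their high r in libraries that include all of these, so the r are no independent support.

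Relatives and partners of the 8 genes gave no call after adjustment in limma in any of 8 families. Of the carbonic anhydrases, 13 were kept and 10 lay below 0, with a median of -0.72 that is the value of Car2 itself. Car7, a cytosolic form, was the only one whose groups did not overlap, at 129, 105 and 67.0 normalised reads in sham and 22.1, 34.6 and 7.21 in OHT (a difference of -2.37 on the log2 scale with SE 1.11 and adjusted p = 0.438 in limma). No other family member was near Car2 and Car14 in reads: the next, Car5b, reached at most 506.

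Bicarbonate and proton carriers were kept for 10 genes, with 8 below 0 and a median of -0.64. Slc16a1, a lactate and proton carrier, had the most reads, at 2476, 5770 and 3961 in sham and 1646, 2285 and 894 in OHT without overlap (a difference of -1.36 on the log2 scale with SE 0.45 and adjusted p = 0.343 in limma). Slc4a7, a sodium bicarbonate carrier, was at 1810, 2016 and 2005 in sham and 1208, 1241 and 1412 in OHT, also without overlap (a difference of -0.60 on the log2 scale with SE 0.36 and adjusted p = 0.519 in limma). Both carriers were lower in each OHT library, but neither passed the test.

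Among Dickkopf genes and WNT co-receptors, 5 were kept and 4 lay below 0. Dkk3 itself had the most reads. Dkk2, a secreted WNT antagonist, was at no more than 61.7 normalised reads in any sorted library and at 254 ppm in the cultures, against 0.384 ppm in sorted cells.

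In the GPR37 group, 4 genes were kept and 3 lay below 0. Psap, the gene of prosaposin, had the most reads and lay above 0, at 200254, 160740 and 264367 in sham and 307984, 372482 and 197301 in OHT with overlap (a difference of 0.47 on the log2 scale with SE 0.45 and adjusted p = 0.667 in limma). Psap is a lysosomal gene that microglia express as well.

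Of the ABCA transporters, 11 were kept and 7 lay below 0, with a median of -0.81. Abca9, a close relative of Abca8a, had the most reads, at 9310, 6467 and 4466 in sham and 7124, 5260 and 7502 in OHT, with a log2 difference of 0.02. Abca8b, the close paralogue of Abca8a, was at 791, 1366 and 313 in sham and 510, 255 and 484 in OHT, with a log2 difference of -0.81 beside -0.84 for Abca8a. Reads shared by these similar genes may have been split in counting. All OHT libraries were above sham in normalised reads for the cholesterol exporter Abca1 (1740, 1577 and 3803 against 5108, 5891 and 5360) and Abca7 (421, 343 and 356 against 728, 438 and 512). In ppm both genes overlapped. Abca1 was at 77.6 ppm in OHT replicate 1 and 89.4 ppm in sham replicate 3. Abca7 was at 9.93 ppm in OHT replicate 2 and 10.8 ppm in sham replicate 1. Abca2, Abca5 and Abca13 had all OHT libraries below sham, with log2 differences of -1.01, -1.55 and -3.92. The limma adjusted p of these 5 lay between 0.332 and 0.668.

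Of 5 clusterin receptors, 4 lay below 0, with a median of -0.95. Trem2, a microglial receptor, had the most reads and lay above sham in every OHT library, at 44168, 32846 and 41210 against 116366, 61943 and 71300 (a difference of 1.03 on the log2 scale with SE 0.37 and adjusted p = 0.351 in limma). Lrp2, an endocytic receptor, was below sham in every OHT library, at 212, 633 and 277 against 13.8, 24.7 and 160.3 (a difference of -3.09 on the log2 scale with SE 1.05 and adjusted p = 0.343 in limma). So the ligand Clu lay beside receptors with values in both directions, and none of the receptors passed.

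All 8 thyroid hormone genes were kept and all 8 lay below 0, with a median of -1.30, and all 8 had groups that overlapped. Crym had the most reads. Thra and Thrb, the nuclear receptors, had log2 differences of -1.06 and -1.29, and Dio2, the enzyme that makes active hormone, had -1.83 (limma adjusted p = 0.519, 0.510 and 0.468).

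Prdx6 was the one peroxiredoxin with a value below 0. Of 6 kept family members 5 lay above 0, and the median was 0.54. Prdx1 was at 10048, 8600 and 12987 in sham and 39864, 18206 and 16055 in OHT (a difference of 1.13 on the log2 scale with SE 0.39 and adjusted p = 0.345 in limma). Prdx5 was at 11887, 7664 and 12616 in sham and 32809, 17186 and 19248 in OHT (a difference of 1.08 on the log2 scale with SE 0.36 and adjusted p = 0.343 in limma). Neither gene overlapped, and both are widely expressed, microglia included. The microglia markers lay mostly on the same side, with 9 of 12 above 0 and a median of 0.59. In normalised reads 6 of 12 were above sham in every OHT library, as were 9.26% of all kept genes. In ppm Ctss, among these 6, overlapped, at 14992 in OHT replicate 2 and 15418 in sham replicate 1. The part of microglia in the peroxiredoxin values was not tested. Prdx6b, a near-identical copy of Prdx6, was at no more than 6.20 normalised reads.

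The core Müller glia markers also lay mostly below 0, in 9 of 10 cases, with a median of -0.86. Glul had the most reads, at 45779, 82142 and 29379 in sham and 32576, 22912 and 47626 in OHT (a difference of -0.55 on the log2 scale with SE 0.44 and adjusted p = 0.605 in limma). In normalised reads the transcription factor genes Sox2, Sox9 and Lhx2 were below sham in every OHT library, as were 9.18% of all kept genes. Their log2 differences were -0.87, -1.65 and -1.02, with limma adjusted p of 0.623, 0.332 and 0.477. For Sox2 the margin was narrow, at 319.7 in OHT replicate 3 and 321.3 in sham replicate 1. In ppm Sox2 overlapped, at 8.46 in OHT replicate 3 and 8.22 in sham replicate 1.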

How the data were processed

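RNA was measured in 9 mouse libraries by paired-end reads of 150 bp, after cDNA amplification for low inputs, per the labels' protocols. The submitters' processing notes name bcl2fastq 2.20, Trim Galore 0.6.6, FastQC 0.11.9, STAR 2.7.1a and the build mm39. For the counting program, its strand setting, the gene models and the scaling method, the method is not given in the sources used here. Without strand, reads of a gene and an antisense gene cannot be told apart. The deposited signal is 1 normalised read count per gene and library, that is a count divided by 1 factor per library and not by length. Dividing by the smallest step gave whole reads for 100% of values within 0.05 reads, although in primary culture replicate 3 the step is too near 1 to be a check. Replicates were not duplicates, with a chi-square per gene of at least 53.8.

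OHT was compared with sham by limma 3.58.1 (R 4.3.3; lmFit, eBayes with trend) on log2(value + 1) in genes with a mean of at least 10, with Benjamini-Hochberg adjustment over 14403 genes and a threshold of 0.05. This scale understates changes of low genes. The recovered reads were also tested with edgeR's quasi-likelihood test (4.0.16) and with DESeq2 (1.42.0). The other alternatives were pseudocounts of 0.5 and 10, no filter or a mean of at least 100, TMM and quantile scaling, a replicate block, a rod covariate, scaling to 5 glia genes, and leaving out each library. Culture levels are ppm of the library total, and their alternatives were totals without the 20 highest genes or without mitochondrially encoded genes, the median of ratios, and leaving out each library. Lengths are GENCODE M21 exon unions, whose build differs from mm39. At these depths 1 read is worth 0.0130 to 0.0264 ppm. That is the smallest step and not the counting error, which was not estimated. Counting error weighs most on low counts, such as the 9 to 15 reads of Abca8a in the cultures.

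Named genes are all 8 members in every library, the 3 genes of highest Pearson r with each among genes with a mean of at least 100 (predicted genes left out), and of each family or glia list the genes without overlap and the one with the most reads. Other genes were named after their values were seen: Abca8b, Abca9, Car5b, Dkk2, Thra, Thrb, Dio2, Prdx6b, Rlbp1, Aqp4, Kcnj10, Vim, Col1a1, Acta2, Ctss, Kdr and Flt1. The members and lists were chosen with earlier results of these data known. The tests were tried on simulated data. Tables were made in Python 3.11.15 with pandas 2.3.3, numpy 2.4.6 and scipy 1.17.1, and figures with matplotlib 3.10.9.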

Additional observations from a re-analysis of the deposited data

How the results depend on the processing

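No member passed the adjusted threshold under any of the alternatives, where the smallest adjusted p was 0.259 (Clu, DESeq2) and the largest 0.9995. Of 144 member values 15 reversed, and the cause was not tested. With the rod covariate the log2 difference was 0.11 for Dkk3, 0.54 for Car14, 0.20 for Gpr37, 0.30 for Clu, 0.46 for Crym and 0.43 for Prdx6. Scaled to 5 glia genes it was 0.42 for Car14, 0.081 for Gpr37, 0.37 for Crym and 0.075 for Prdx6. That scaling without sham replicate 2, chosen after seeing the data, gave 0.45 for Car14 and 0.26 for Crym. Leaving out 1 library gave -1.31 to -0.44 for Dkk3, -0.55 to 0.22 for Car14, -0.96 to -0.30 for Car2, -0.90 to -0.26 for Gpr37, -1.23 to -0.41 for Abca8a, -1.42 to -0.55 for Clu, -0.60 to 0.025 for Crym and -0.97 to -0.28 for Prdx6. The Car14 value was 0.22 without sham replicate 2 and 0.17 without OHT replicate 2, and that of Crym was 0.025 without sham replicate 2.

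The correlations without sham replicate 2 were likewise chosen after seeing the data. The count of genes past the threshold was 0, 250 with DESeq2, 2 with the replicate block, and 0 to 17 leaving out 1 library. Deviations of same-numbered libraries had r of 0.0776, -0.0246 and -0.0451 over 14403 genes. Those of libraries with unlike numbers ran from -0.0730 to 0.0995. With 3 libraries per group these r cannot tell whether replicate numbers paired the samples. Genes without overlap numbered 2656 (1322 lower and 1334 higher in OHT) and 3194 to 5274 leaving out 1 library (1637 to 2682 lower, 1557 to 2592 higher). On the ppm scale they were 1647 lower and 783 higher. Members without overlap numbered 0 to 4 leaving out 1 library, all lower in OHT. They were Dkk3, Gpr37, Clu and Prdx6 without sham replicate 1 (17.9% of all genes), Abca8a and Crym without OHT replicate 3 (16.7%), and Car2 without OHT replicate 1 (13.0%). Under quantile scaling there was 1, Car2 (7.09%). Under quantile scaling the members' median was -1.07, beside 0.01 for all genes, and 6 of 8 members had an unadjusted limma p under 0.05, as did 10.9% of all genes at that scaling. The 7 genes lower in cultures stayed so in all 12 alternatives, and the log2 ratio of Prdx6 ranged from 0.14 to 0.71.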
